A study of Mus musculus with 8 samples.

Results

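Double knockout liver, which lacks both Dnmt2 and Nsun2, was compared with liver that lacks Dnmt2 alone, so that the pair differs by genotype in Nsun2 on a background where Dnmt2 is already absent. Dnmt2 (gene symbol Trdmt1) and Nsun2 are RNA methyltransferases that add a methyl group to cytosines of transfer RNAs, Dnmt2 in the anticodon loop of a few tRNAs and Nsun2 in many tRNAs, and tRNAs that lack these methyl groups are known to be more open to cleavage. The genes compared were those with a detection p-value under 0.01 on at least 1 of the 2 arrays, which gave 8979 of the 16559 genes on the array. Of these, 7466 were detected on both arrays, 737 in double knockout liver only and 776 in Dnmt2-/- liver only.

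The groups used were DKO (double knockout), Dnmt2-/-, Nsun2-/- and wild-type livers of mice aged 2 months, with DKO and Dnmt2-/- mouse embryonic fibroblasts (MEFs) set beside them. The MEFs came from embryos of embryonic day 13.5, were taken at passage 9 and had been immortalized by large T of SV40. All mice had the mixed strain CBA/C57BL6j x B6;129, the labels do not give their sex, and Eif2s3y, a gene of chromosome Y, was detected in all 4 livers. Differences in background or feeding between single livers cannot be told apart from genotype. Each group had 1 Illumina MouseRef-8 v2 bead array, so no difference between DKO and Dnmt2-/- liver has a replicate check or a p-value, and the number of arrays limits the precision.

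Levels are log2 normalized signals, and differences are DKO minus Dnmt2-/- liver on that log2 scale. Where a probe was not detected on 1 of the 2 arrays, its value there was raised to the lowest detected signal of that array, which was 4.48 in DKO and 4.51 in Dnmt2-/- liver, unless its own value was higher. Such a difference is a bound and is written "at least". Per array, 11585 and 11688 of 25608 probes were detected in DKO and Dnmt2-/- liver, and the median intensity was 100.3 and 102.9. Log2 intensities of these 2 arrays correlated at r = 0.99 across probes.

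The targeted genes gave an incomplete check of the labels. Nsun2 was not detected in DKO liver, at 4.19, but it was also not detected in the liver labelled Dnmt2-/-, at 4.41, where the label gives no Nsun2 mutation. It was not detected at 4.10 in Nsun2-/- liver and was detected at 5.35 in wild-type liver. The probe therefore does not show the Nsun2 difference that the labels name between the 2 livers, and every direction below is drawn between arrays as labelled. Trdmt1 was detected in none of the 4 livers, at 4.64 in DKO, 4.87 in Dnmt2-/-, 4.15 in Nsun2-/- and 4.31 in wild-type liver, so it checks nothing. The sources used here do not say where these probes lie relative to the disrupted parts of the genes.

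Of the 10 tested genes nearest Nsun2 on chromosome 13, 2 were at least 2-fold lower in both livers labelled as lacking Nsun2, each against its pair. Over all 8172 genes present in both comparisons, 15 were lower in both by that limit. Fastkd3, which acts on mitochondrial RNA, had a level of 5.17 in DKO liver, against 6.41 in Dnmt2-/- liver, a difference of −1.24, and it was not detected at 4.69 in Nsun2-/- liver, against 6.13 in wild-type liver. The zinc finger gene Zfp738 was not detected in DKO liver and had a level of 6.23 in Dnmt2-/- liver, so it was at least 3.36-fold lower. In the other pair Zfp738 was not detected in Nsun2-/- liver and had a level of 6.39 in wild-type liver. Both genes were thus low in the 2 livers labelled as lacking Nsun2 and high in the other 2. Tent4a and Med10, the tested genes next to Nsun2 on either side, differed by 0.06 and −0.38, and the other 6 by −0.37 to 0.25.

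The labelled tissue was checked against marker genes. Of 16 hepatocyte markers on the array, 14 were detected in DKO and 14 in Dnmt2-/- liver, and Fgb and Tat were detected in neither. Ttr, the thyroid hormone carrier, had levels of 14.08 and 14.07, and the lipoprotein gene Apoa1 14.03 and 14.01, in DKO and Dnmt2-/- liver. The summed intensity of the hepatocyte markers was 127500 in DKO and 144200 in Dnmt2-/- liver. Summed intensities, here and below, are not normalized and include background and undetected markers, so they do not compare levels between livers. Exocrine pancreas and gut markers were mostly undetected, at 4 and 5 of 22.

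DKO liver differed from Dnmt2-/- liver by at least 2-fold in 339 of the 8979 genes (3.78%). Of these, 169 were higher in DKO liver (1.88%) and 170 lower (1.89%). At least 4-fold differences numbered 18 higher and 17 lower, and at least 8-fold differences 5 higher and 5 lower. Over all 8979 genes the median difference was 0.01 and the middle 90% lay between −0.68 and 0.70. For 156 of the 339 genes the difference is a bound. The brighter of the 2 arrays had a level under 6 for 128 of the 339 genes, from 6 to 8 for 123 and of 8 or more for 88. The 2-fold limit cut through a continuum. Il1b at 2.005-fold and Krt12 at a bound of 2.005-fold lay just inside on the higher side, and Nle1 and L3mbtl4 at 1.997-fold just outside. On the lower side Spc25 and Hnrnph3 lay just inside at −1.0, and Cables2 at 1.999-fold and Ptgfrn at 1.997-fold just outside.

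**Figure D1:**
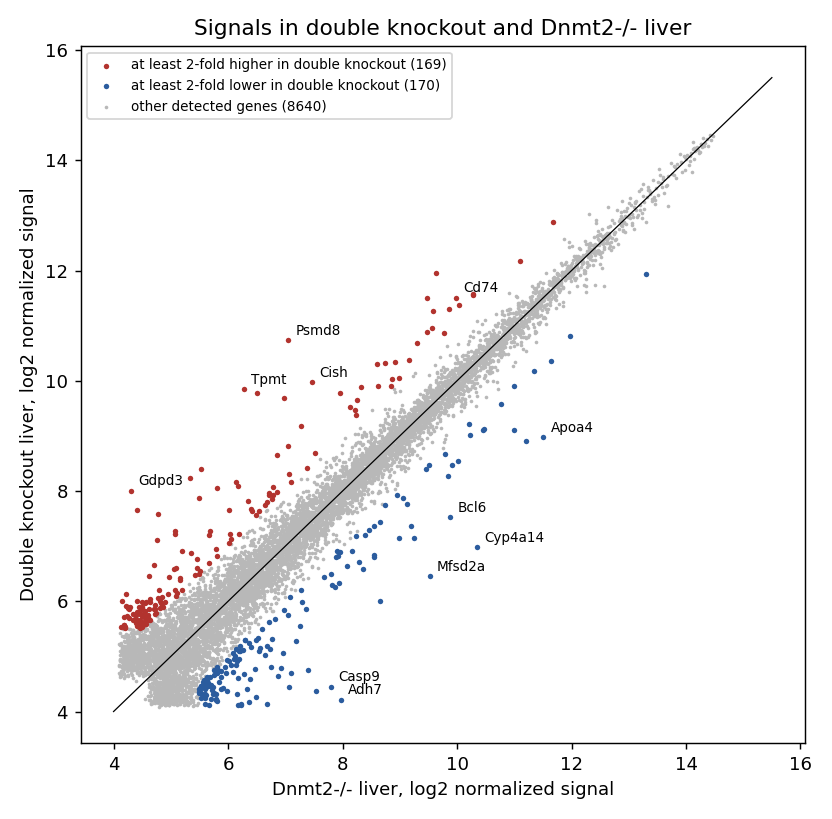
Each point is 1 gene detected in at least 1 of the 2 livers, with its measured log2 normalized signal in Dnmt2-/- liver (horizontal axis) and in double knockout liver (vertical axis), and the line marks equal signals. The 169 genes at least 2-fold higher (red) and 170 at least 2-fold lower (blue) in double knockout liver include 128 with a signal under 6 in both livers, near background.

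The places of DKO and Dnmt2-/- liver among the 4 liver arrays were also read. Of the 169 genes higher in DKO liver, DKO was the highest of the 4 livers in 128 (75.7%), Dnmt2-/- was the lowest in 65.7%, and both held for 76. Of the 170 genes lower in DKO liver, DKO was the lowest of the 4 in 127 (74.7%), Dnmt2-/- was the highest in 132 (77.6%), and both held for 95. Among these genes Dnmt2-/- liver was the extreme one about as often as DKO liver. The genes were chosen for a large difference between DKO and Dnmt2-/- liver, which by itself favours these livers as highest or lowest. The shares were not set against those of all genes, so they do not show which liver departed from the others.

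The gene with the largest measured difference was Psmd8, a subunit of the proteasome's regulatory particle. Its level was 10.73 in DKO liver, against 7.05 in Dnmt2-/- liver, with 10.54 in Nsun2-/- and 10.39 in wild-type liver, a difference of 3.68. Dnmt2-/- liver alone was low. Tpmt, which methylates thiopurine drugs, had a level of 9.85 in DKO liver, against 6.28 in Dnmt2-/- liver, with 9.92 in Nsun2-/- and 5.81 in wild-type liver, a difference of 3.57. Here the livers labelled as lacking Nsun2 were both high. Gdpd3, a lysophospholipase D, had a level of 8.0 in DKO liver and was not detected in Dnmt2-/- liver, at least 11.3-fold higher, with 5.02 in Nsun2-/- liver and no detection in wild-type liver. DKO liver alone was high for this gene. Apoc2, the activator of lipoprotein lipase, had a difference of 3.27 on its brightest probe and −0.77 on its other detected probe, so no direction is given for it.

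Among the genes lower in DKO liver, Adh7, an alcohol dehydrogenase, was not detected there and had a level of 7.97 in Dnmt2-/- liver, at least 11.2-fold lower, with 7.94 in Nsun2-/- and 6.41 in wild-type liver. Mfsd2a, a transporter of lysophospholipids, had a level of 6.46 in DKO liver, against 9.52 in Dnmt2-/- liver, with 6.98 in Nsun2-/- and 8.11 in wild-type liver, a difference of −3.07. Apoa4, a lipoprotein gene, had a level of 8.98 in DKO liver, against 11.51 in Dnmt2-/- liver, with 8.91 in Nsun2-/- and 9.80 in wild-type liver. Dnmt2-/- liver was the highest of the 4 for all 3 of these genes. Casp9, an initiator caspase of apoptosis, was at least 9.93-fold lower in DKO liver on its brightest probe, while another detected probe of the gene differed by 0.53, so no direction is given for the gene. Of the 339 genes, 64 had at least 2 detected probes. All of the detected probes passed 2-fold for 18 of them, and probes differed in sign for 14, Apoc2 and Casp9 included.

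The clearest group on the lower side was that of genes of fatty acid oxidation and targets of PPARA, the nuclear receptor that switches on fat burning in the fasted liver. Of 29 detected members, 27 were lower and 2 higher in DKO liver, 10 were at least 2-fold lower and 0 at least 2-fold higher, against 1.89% of all genes at least 2-fold lower. The authors' deposited values put 6 members at least 2-fold lower. The median difference was −0.53, against 0.01 for all genes. Cyp4a14, a fatty acid omega-hydroxylase, had a level of 6.98 in DKO liver, against 10.35 in Dnmt2-/- liver, with 10.19 in Nsun2-/- and 8.72 in wild-type liver, a difference of −3.37. DKO liver was the lowest of the 4 livers for this gene. Angptl4, an inhibitor of lipoprotein lipase, had a level of 9.11 in DKO liver, 3.69-fold below Dnmt2-/- liver, with 10.86 in Nsun2-/- and 10.95 in wild-type liver. DKO liver alone was low for Angptl4. Fgf21, a hormone released in fasting, had a level of 6.84 in DKO liver, against 8.55 in Dnmt2-/- liver, with 8.06 in Nsun2-/- and 6.25 in wild-type liver, so wild-type liver was lower still. Ppara itself differed by −1.09, with 5.62 in DKO and 6.71 in Dnmt2-/- liver, 5.40 in Nsun2-/- and 5.82 in wild-type liver, so Dnmt2-/- liver alone was high. The other members past 2-fold were the acyl-CoA thioesterases Acot3 at −1.69 and Acot1 at −1.16, the omega-hydroxylases Cyp4a12a at −1.37, Cyp4a12b at −1.28 and Cyp4a31 at −1.19, and the lipid droplet coat gene Plin2 at −1.0. The 2 members that were higher were Ehhadh at 0.03 and Acadm at 0.21, both enzymes of beta-oxidation. In Nsun2-/- over wild-type liver, 18 members of this list were higher and 11 lower, with a median of 0.06. The list of genes known to be higher in female liver had 10 detected members with a median of −0.54, or −0.20 with the authors' deposited values, 4 higher and 6 lower, and its 2 members past 2-fold, Cyp4a14 and Acot3, also belong to the PPARA list.

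Cyp4a12a, Cyp4a12b, Cyp4a14 and Cyp4a31 are neighbours among the tested genes of chromosome 4, and probes for such similar genes can share signal. Of 40 detected cytochrome P450 genes of families 1 to 4, these were the 4 that were at least 2-fold lower, against 1.89% of all genes, and 0 were at least 2-fold higher. Fatty acid and triglyceride synthesis genes had 8 members higher and 17 lower, with a median of −0.16, and Me1, which makes NADPH for fat synthesis, passed 2-fold at −1.23. Cholesterol synthesis genes had 13 members higher and 5 lower, with a median of 0.24. Hmgcs1, which makes HMG-CoA for this pathway, had a level of 12.88 in DKO liver, against 11.68 in Dnmt2-/- liver, with 11.19 in Nsun2-/- and 12.46 in wild-type liver.

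**Figure D2:**
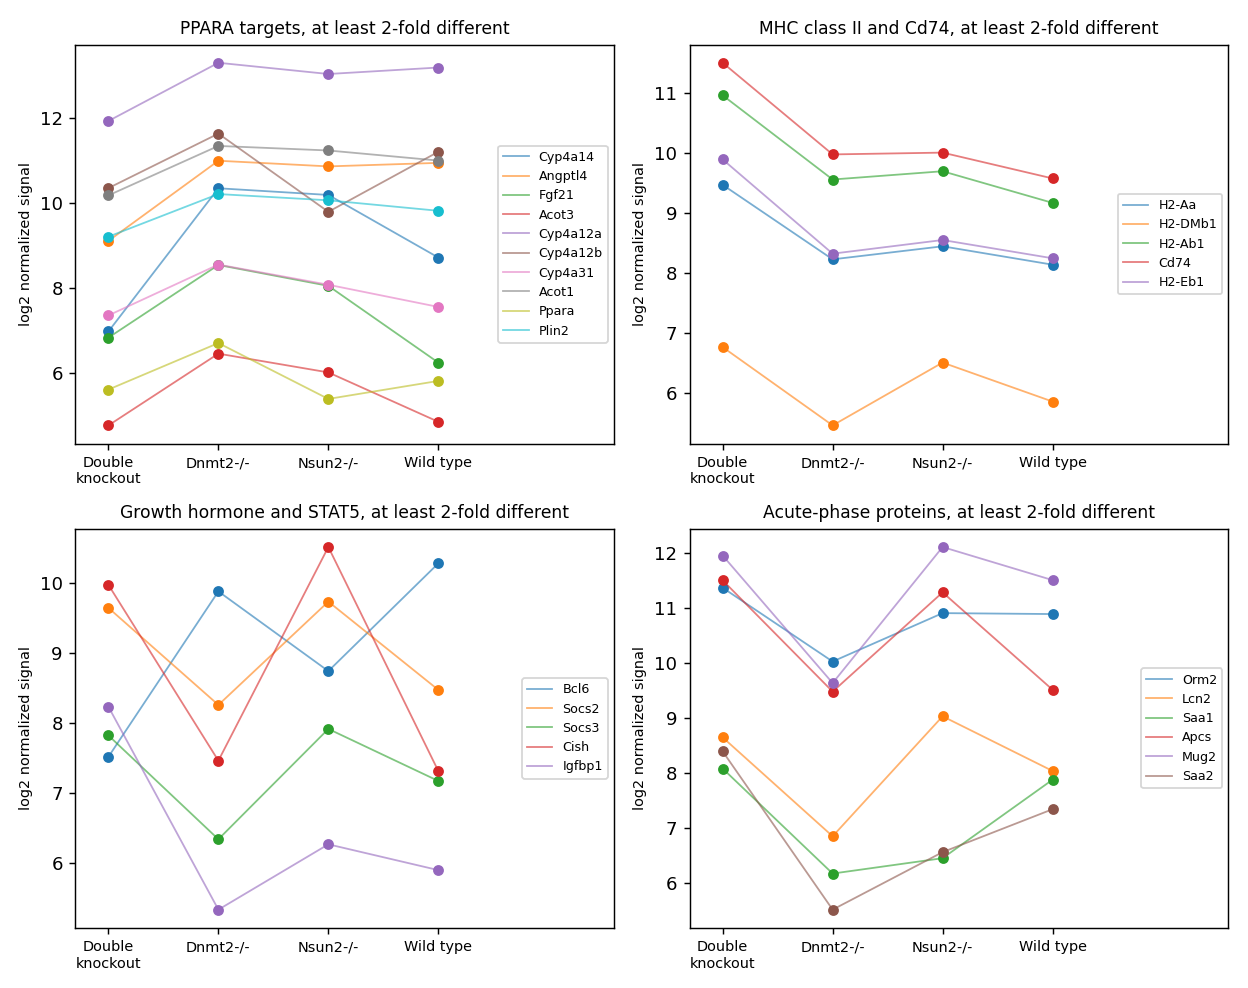
Log2 normalized signals (vertical axis) of the members that differed at least 2-fold between double knockout and Dnmt2-/- liver, in the 4 liver arrays (horizontal axis, 1 array each), for 4 gene lists, with every point detected and lines joining the values of a gene. The MHC class II genes are highest in double knockout liver, whereas Cish and Socs2 are high in both livers labelled as lacking Nsun2.

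Of the 51 gene lists, MHC class II genes had the highest median difference; these genes present antigens to helper T cells and are expressed mainly by macrophages, dendritic cells and B cells. Of 8 detected members, 8 were higher in DKO liver, with a median difference of 1.28, and 5 were at least 2-fold higher, against 1.88% of all genes. Detection on both arrays held for 6 members, and 6 of these were higher, with a median of 1.36. The rest were detected only in DKO liver, so their direction follows from the detection filter. With the authors' deposited values 4 members were at least 2-fold higher and the median was 0.82. In Nsun2-/- over wild-type liver 6 of 6 detected members were also higher, with a median of 0.46 and 0 past 2-fold. Cd74, the invariant chain that guides class II molecules, had a level of 11.51 in DKO liver, against 9.98 in Dnmt2-/- liver, with 10.01 in Nsun2-/- and 9.58 in wild-type liver. H2-Ab1, a beta chain, had a level of 10.96 in DKO liver, against 9.56 in Dnmt2-/- liver, with 9.70 in Nsun2-/- and 9.17 in wild-type liver. DKO liver was the highest of the 4 for both. The differences of H2-Eb1 and H2-Aa were 1.57 and 1.24, and those of the peptide-loading genes H2-DMb1 and H2-DMa were 1.31 and 0.83. Ciita, the coactivator of this gene family, was detected only in DKO liver, at 5.10, with a bounded difference of 0.39. H2-Ab1, H2-Aa and H2-Eb1 were 3 adjacent tested genes on chromosome 17 that all passed 2-fold.

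Markers of macrophages, which carry class II molecules, were also mostly higher, by less. Of 18 detected Kupffer cell and macrophage markers, 15 were higher and 3 lower in DKO liver, with a median of 0.36 and 0 past 2-fold. The unnormalized summed intensity of all 19 such markers on the array was 11310 in DKO liver and 10520 in Dnmt2-/- liver. It was 10240 in Nsun2-/- and 8887 in wild-type liver. Vsig4 differed by 0.66, Clec4f by 0.34 and Timd4 by 0.14, all markers of Kupffer cells, and Cd5l was not detected. Of 18 lymphocyte markers on the array, 7 were detected, 3 of them on both arrays, and 5 of the 7 were higher. All 3 detected on both arrays were higher, and the direction of the rest follows from the detection filter. The unnormalized summed intensity of all 18 lymphocyte markers was 1783 in DKO and 1797 in Dnmt2-/- liver. Most of these markers were undetected, so this sum is largely background and does not compare the cells. The B cell markers Cd79a and Ms4a1 were detected in neither liver. The part of cell numbers in the class II difference was not tested, and more cells of a type and more RNA per cell cannot be told apart in whole tissue.

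The promoters of the class II genes are shown because members of this family were higher together and share a known element, the Y box. RefSeq promoter windows on GRCm38.p6, 250 bases before to 50 after the gene start, were searched on both strands for CTGATTGG, which was found in 4.1% of 32851 promoters. It began 51 bases before the start of H2-Aa (chr17:34287774-34288073, minus strand) and 62 bases before the start of H2-Eb1 (chr17:34305617-34305916, plus strand), and was not found in the windows of H2-DMb1 and H2-DMa, and H2-Ab1 was not searched. Capitals mark the match, and a match is not a measured binding site.
H2-Aa: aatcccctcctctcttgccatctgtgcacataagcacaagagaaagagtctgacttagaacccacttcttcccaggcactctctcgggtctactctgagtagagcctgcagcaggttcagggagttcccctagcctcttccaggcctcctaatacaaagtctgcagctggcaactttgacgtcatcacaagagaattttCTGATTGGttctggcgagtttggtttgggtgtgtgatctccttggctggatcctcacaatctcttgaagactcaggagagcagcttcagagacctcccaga
H2-Eb1: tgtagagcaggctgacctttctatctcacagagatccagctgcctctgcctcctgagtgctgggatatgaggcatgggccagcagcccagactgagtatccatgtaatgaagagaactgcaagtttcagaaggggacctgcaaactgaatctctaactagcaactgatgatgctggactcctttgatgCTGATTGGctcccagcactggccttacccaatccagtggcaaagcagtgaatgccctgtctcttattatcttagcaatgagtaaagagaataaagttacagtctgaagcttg

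Genes of growth hormone and STAT5 signalling held some of the larger differences. Growth hormone acts on the liver through the transcription factor STAT5, which is known to induce the feedback inhibitors Cish and Socs2 and to repress Bcl6. Of 18 detected members, 11 were higher and 7 lower in DKO liver, 4 at least 2-fold higher and 1 at least 2-fold lower, against 1.88% and 1.89% of all genes. The median was 0.09, while scaling arrays to the same median put 8 higher and 10 lower. Cish had a level of 9.97 in DKO liver, against 7.47 in Dnmt2-/- liver, with 10.51 in Nsun2-/- and 7.32 in wild-type liver. Socs2 had a level of 9.65 in DKO liver, against 8.26 in Dnmt2-/- liver, with 9.73 in Nsun2-/- and 8.48 in wild-type liver. Bcl6 had a level of 7.52 in DKO liver, against 9.88 in Dnmt2-/- liver, with 8.74 in Nsun2-/- and 10.28 in wild-type liver. For all 3 genes the 2 livers labelled as lacking Nsun2 lay on 1 side and the other 2 on the other side. Socs3, another feedback inhibitor, differed by 1.48 and Igfbp1, a binding protein of insulin-like growth factors, by 2.90. The hormone receptor gene Ghr differed by 0.15, Igf1 by −0.04 and Stat5a by −0.75.

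The promoters of Cish, Socs3 and Bcl6 are shown because a STAT5 motif, TTCNNNGAA, which reads the same on both strands, was found in them. The same windows were searched on both strands, and 8.3% of 32851 promoters held the motif. Cish (chr9:107296409-107296708, plus strand) had 2 matches, which began at 0 and 11 bases after the gene start. Socs3 (chr11:117969317-117969616, minus strand) had 1 match, beginning 154 bases before the start. Bcl6 had 1 match in its first window (chr16:23988803-23989102, minus strand) and 3 in its second (chr16:23981234-23981533, minus strand). The windows of A2ml1, Gadd45g and Igfbp1 held 0, and Socs2 was not searched. Capitals mark the matches.
Cish: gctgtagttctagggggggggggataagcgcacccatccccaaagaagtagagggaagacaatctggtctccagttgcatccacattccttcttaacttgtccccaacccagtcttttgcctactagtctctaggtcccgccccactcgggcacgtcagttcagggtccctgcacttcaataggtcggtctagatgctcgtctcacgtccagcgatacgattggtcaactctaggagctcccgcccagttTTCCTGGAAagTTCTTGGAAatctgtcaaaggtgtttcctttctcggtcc
Socs3: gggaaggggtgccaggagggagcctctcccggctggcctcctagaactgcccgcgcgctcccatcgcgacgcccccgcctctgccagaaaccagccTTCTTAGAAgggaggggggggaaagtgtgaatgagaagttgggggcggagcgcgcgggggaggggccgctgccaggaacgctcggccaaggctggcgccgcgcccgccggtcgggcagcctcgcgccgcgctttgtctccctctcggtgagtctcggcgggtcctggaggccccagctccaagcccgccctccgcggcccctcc
Bcl6 first window: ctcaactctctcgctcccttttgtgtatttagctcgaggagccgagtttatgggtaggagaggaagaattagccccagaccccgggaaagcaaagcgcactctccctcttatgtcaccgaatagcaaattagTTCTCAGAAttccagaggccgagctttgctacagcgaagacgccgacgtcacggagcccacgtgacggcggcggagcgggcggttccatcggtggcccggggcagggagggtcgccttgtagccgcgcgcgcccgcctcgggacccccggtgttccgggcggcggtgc
Bcl6 second window: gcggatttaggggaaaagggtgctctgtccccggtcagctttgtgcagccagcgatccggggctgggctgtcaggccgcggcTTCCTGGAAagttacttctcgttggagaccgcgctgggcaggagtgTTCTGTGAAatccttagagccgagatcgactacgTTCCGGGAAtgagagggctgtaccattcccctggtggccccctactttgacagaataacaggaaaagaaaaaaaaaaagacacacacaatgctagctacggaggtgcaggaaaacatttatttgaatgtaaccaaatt

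Acute-phase proteins, which the liver secretes in inflammation, had 23 of 33 detected members higher and 10 lower in DKO liver, 6 at least 2-fold higher and 0 at least 2-fold lower, against 1.88% and 1.89% of all genes. The median was 0.15, and 0.01 with arrays scaled to the same median. Saa2, a serum amyloid A, had a level of 8.40 in DKO liver, against 5.53 in Dnmt2-/- liver, with 6.57 in Nsun2-/- and 7.35 in wild-type liver. Its neighbour Saa1 had a level of 8.09 in DKO liver, against 6.18 in Dnmt2-/- liver, with 6.46 in Nsun2-/- and 7.88 in wild-type liver. Probes of these similar genes can share signal. Apcs, serum amyloid P, had a level of 11.50 in DKO liver, against 9.48 in Dnmt2-/- liver, with 11.29 in Nsun2-/- and 9.52 in wild-type liver. The protease inhibitor Mug2 differed by 2.32, the iron-scavenger carrier Lcn2 by 1.79 and the plasma carrier Orm2 by 1.34. Dnmt2-/- liver was the lowest of the 4 for Saa1, Saa2, Apcs, Mug2, Lcn2 and Orm2. Among the other members, Hp differed by 0.22 and Crp by −0.49.

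Immediate-early genes, which are induced within minutes by many stimuli, tissue handling included, had 15 of 27 detected members higher and 12 lower, 7 at least 2-fold higher and 1 at least 2-fold lower, against 1.88% and 1.89% of all genes. With the authors' deposited values 4 were at least 2-fold higher and 0 at least 2-fold lower. Fos, a subunit of the AP-1 factor, had a level of 6.92 in DKO liver, against 5.20 in Dnmt2-/- liver, with 5.12 in wild-type liver and no detection in Nsun2-/- liver. Dusp1, a phosphatase that switches off MAP kinases, had a level of 11.27 in DKO liver, against 9.59 in Dnmt2-/- liver, with 9.46 in Nsun2-/- and 9.21 in wild-type liver. Egr1 differed by 1.28, Junb by 1.28 and Zfp36 by 1.28. DKO liver was the highest of the 4 for Fos, Dusp1, Egr1, Junb and Zfp36, whereas Nsun2-/- liver was the highest for Gadd45g and Socs3, the other two past 2-fold. Ccn1 was lower, at a bound of −1.27. The chemokine genes had 9 members higher and 8 lower, or 8 higher and 9 lower with arrays scaled to the same median, and Cxcl1, which attracts neutrophils, differed by 1.83. Neutrophil markers had 6 of 6 detected members higher, with a median of 0.30, or 0.09 with the authors' deposited values. Of these members, 5 were detected on both arrays, with a median of 0.13. The unnormalized summed intensity of all 12 neutrophil markers on the array was 1587 in DKO and 1369 in Dnmt2-/- liver. Much of it is background, since undetected markers are included, and Mpo, Ltf and Camp were detected in neither liver. The part of these cells in the Cxcl1 and Lcn2 values was not tested.

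Circadian clock genes had 4 of 17 detected members higher and 13 lower in DKO liver, with a median of −0.21. Noct, a rhythmically expressed phosphatase, was not detected in DKO liver and had a level of 7.06 in Dnmt2-/- liver, with 5.13 in Nsun2-/- and 5.22 in wild-type liver, at least 5.98-fold lower. Dbp, a clock output factor, had a level of 6.64 in DKO liver, against 8.08 in Dnmt2-/- liver, with 6.75 in Nsun2-/- and 7.51 in wild-type liver. Per1, a repressor of the clock, was detected only in Dnmt2-/- liver, at a dim 5.58, and was at least 2.13-fold lower in DKO liver. Of the 14 clock genes detected on both arrays, 3 were higher and 11 lower, with 1 at least 2-fold lower. Arntl, the clock activator that peaks opposite to these genes, differed by 0.48. The sources used here do not give the hour of dissection.

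**Figure D3:**
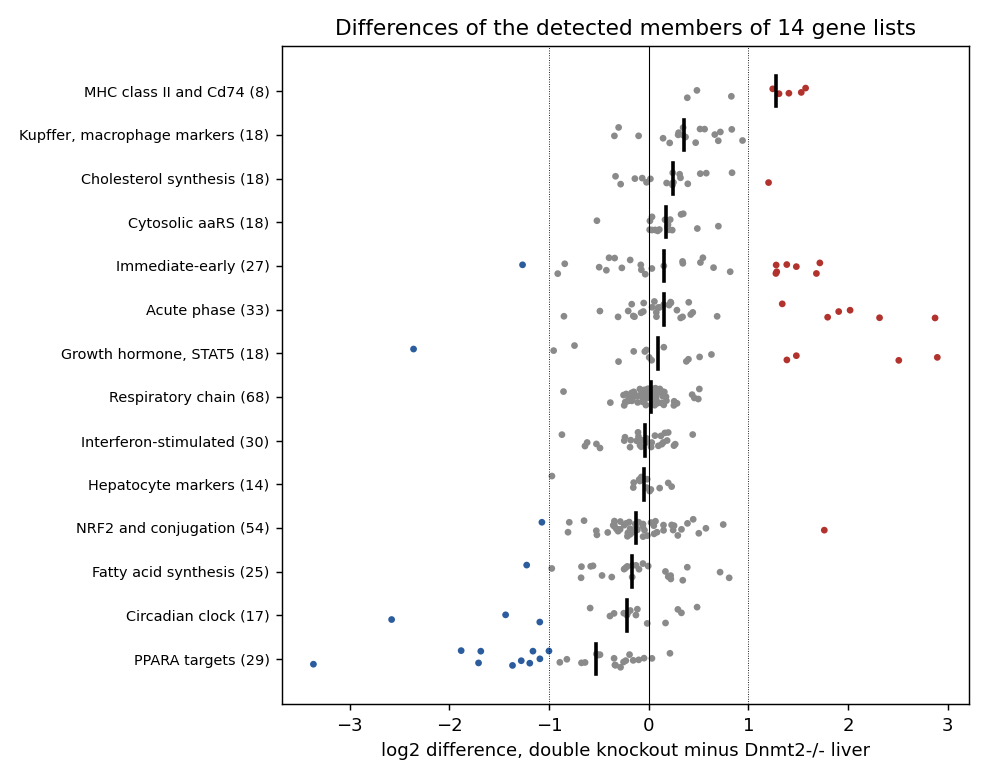
Each point is 1 detected gene of the list named on the vertical axis (number of detected members in brackets; aaRS, aminoacyl-tRNA synthetases), placed by its log2 difference between double knockout and Dnmt2-/- liver (horizontal axis), bounds included. Vertical bars are list medians and dotted lines mark 2-fold. Among the lists drawn, PPARA targets (median −0.53) and MHC class II genes (median 1.28) lie farthest from 0.

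Lists of genes that handle tRNA, the substrate of both enzymes, had medians near 0, with single members past 2-fold. Of 18 detected cytosolic aminoacyl-tRNA synthetase genes, which charge tRNAs with amino acids, 17 were higher and 1 lower in DKO liver, 0 passed 2-fold and the median was 0.18. With arrays scaled to the same median, 10 were higher and 8 lower. Wars, for tryptophan, differed by 0.70 and Iars, for isoleucine, by 0.49. Of 12 mitochondrial synthetase genes 2 were higher and 10 lower, with a median of −0.07. Among 40 detected genes of other tRNA modification enzymes, 3 passed 2-fold, 2 higher and 1 lower, against 3.78% of all genes, and with the authors' deposited values 0 did. Cdkal1, a methylthiotransferase, differed by 1.18 and Pus7, a pseudouridine synthase, by a bound of 1.23, although another detected probe of Pus7 gave −0.26. Trmt10c, a subunit of mitochondrial RNase P, was not detected in DKO liver and had a level of 6.49 in Dnmt2-/- liver, at least 4.02-fold lower, and it was not detected in Nsun2-/- or wild-type liver either. The m5C methyltransferase genes Nop2, Nsun4 and Nsun5 differed by −0.03, −0.14 and 0.18, and Nsun3 was detected only in DKO liver. Of 19 detected genes of tRNA cleavage and decay, 0 passed 2-fold.

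Genes of protein synthesis showed no common shift. The 53 detected cytosolic ribosomal protein genes had a median of 0.00, with 26 higher and 26 lower. At least 2-fold lower were 3, against 1.89% of all genes: Rps3a1, and by bounds Rps15a and Rpl21, which were not detected in DKO liver. With the authors' deposited values 1 was. The 69 mitochondrial ribosomal protein genes had 35 higher and 34 lower. Of these, 2 were at least 2-fold higher and 2 at least 2-fold lower, against 1.88% and 1.89% of all genes. The 68 respiratory chain genes had 39 higher and 29 lower with 0 past 2-fold. With arrays scaled to the same median, which moved the median of all genes to −0.10, the mitochondrial ribosomal list had 14 higher and 55 lower and the respiratory chain list 12 higher and 56 lower, with medians of −0.13 and −0.14. The cytosolic ribosomal list then had 10 higher and 43 lower, with a median of −0.16. Among 22 detected targets of ATF4, the factor of the amino acid stress response, 13 were higher and 9 lower, and 10 higher and 12 lower with that scaling. Asns, asparagine synthetase, had a level of 9.53 in DKO liver, against 8.12 in Dnmt2-/- liver, with 7.53 in Nsun2-/- and 6.57 in wild-type liver. Chac1, which degrades glutathione, differed by 1.24, and Atf4 itself by 0.76. The 30 detected interferon-stimulated genes had 13 higher and 17 lower, with 0 past 2-fold.

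The same question was asked in the pair Nsun2-/- over wild-type liver, where Dnmt2 is present and which shares no array with DKO over Dnmt2-/- liver. That pair had 259 of 8949 genes at least 2-fold different (2.89%), 126 higher (1.41%) and 133 lower (1.49%). Across 8172 genes present in both comparisons, 59 were at least 2-fold different in both, 16 higher in both, 15 lower in both and 28 in opposite directions. The 31 genes with the same direction were 10.1% of the genes called in DKO over Dnmt2-/- liver and 14.2% of those called in Nsun2-/- over wild-type liver. Of the 306 genes called in DKO over Dnmt2-/- liver, 165 (53.9%) had the same direction in the other pair at any size, against 54.1% of all genes. The measured differences of these 8172 genes, undetected values included, correlated at r = 0.09 across genes, which are not independent replicates.

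The genes that were at least 2-fold different in the same direction were led by Tpmt, at 3.57 in DKO over Dnmt2-/- liver and 4.11 in Nsun2-/- over wild-type liver. The brightest probe of Casp9 was at least 9.93-fold lower in DKO over Dnmt2-/- liver and at least 9.496-fold lower in Nsun2-/- over wild-type liver, and the sperm chromatin gene Prm1 at least 8.30-fold and at least 14.97-fold lower in the same pairs. A2ml1, a protease inhibitor of the alpha-2-macroglobulin family, had a level of 9.69 in DKO liver, against 6.98 in Dnmt2-/- liver, and 9.98 in Nsun2-/- liver, against 6.63 in wild-type liver. After these came Cish, Apcs, Olig1, Rgs5, Bcl6, Mul1, Smpdl3b and Dct. Rgs5, a regulator of G-protein signalling and a marker of pericytes, differed by 1.65 and 1.70, and Mul1, a ubiquitin ligase of mitochondria, by −1.51 and −2.11. Fastkd3 and Zfp738 beside Nsun2 were also among the 31, as was Mfsd2a.

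**Figure D4:**
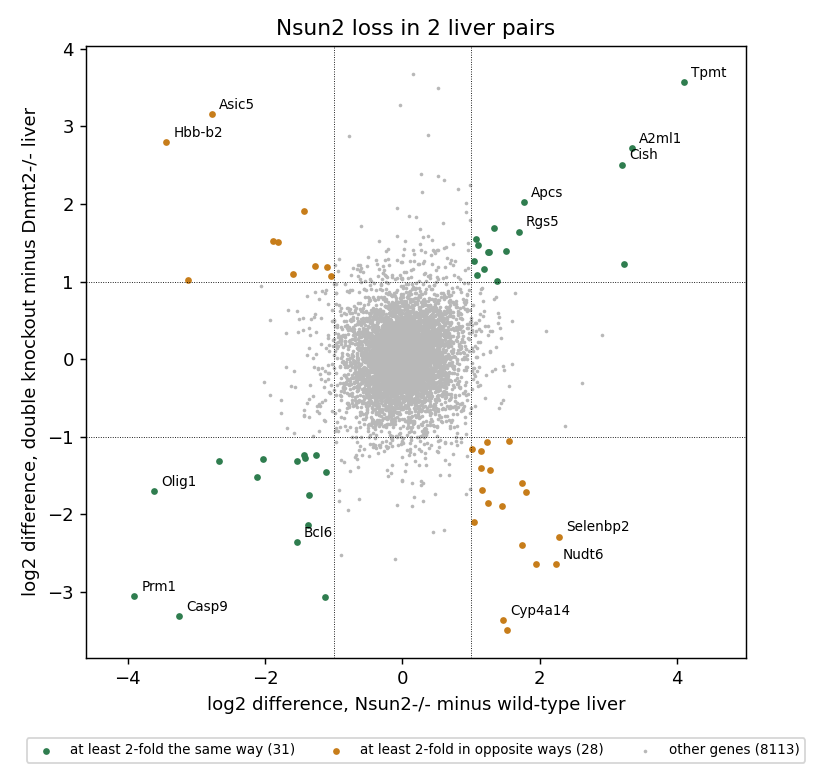
Each point is 1 gene, with its log2 difference in Nsun2-/- over wild-type liver (horizontal axis) and in double knockout over Dnmt2-/- liver (vertical axis), bounds included, and dotted lines at 2-fold. The 31 genes at least 2-fold different the same way (green) and the 28 in opposite ways (orange) lie outside a round cloud of the other genes.

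A model over all 8 arrays estimated the effect of Nsun2 loss in liver from both liver pairs, with the departure of arrays from the layout as its spread and 2 residual degrees of freedom. limma called 0 of 10491 genes at an adjusted p under 0.05 (0.0%), and 662 had an unadjusted p under 0.05. The lowest adjusted p in limma was 0.0797, for the brightest probe of Casp9. A2ml1, at 3.03 ± 0.22 (SE), and Prm1 had an adjusted p of 0.130 in limma, and Tpmt, at 3.84 ± 0.34 (SE), one of 0.209. Casp9 and Prm1 were not detected in DKO and Nsun2-/- liver and entered the fit at values near background, so no fitted effect is given for them. Cish, Rgs5, Apcs, Mul1, Htr1d and Smpdl3b followed, with adjusted p-values from 0.251 to 0.409 in limma. Disagreement between the liver pairs is part of the spread in this fit, so that genes alike in both pairs get the lower p-values by construction.

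In MEFs, DKO over Dnmt2-/- had 619 of 9835 genes at least 2-fold different (6.29%). Among 7836 genes present in both tissues, 32 were at least 2-fold different in both, 8 higher, 11 lower and 13 in opposite directions. Of the genes called in liver, 48.9% had the same direction in MEFs, against 51.0% of all genes, and the correlation across genes was 0.01. The PPARA list had 12 members higher and 9 lower in MEFs, with a median of 0.17. Of 7 detected MHC class II members, 6 were higher and 1 lower in MEFs, with a median of 0.455. At least 2-fold higher were 2 of them, against 6.29% of all genes past 2-fold in either direction. Of the 2 low genes beside Nsun2, Fastkd3 differed by −1.91 in MEFs and Zfp738 by a bound of −0.24.

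The genes at least 2-fold different between DKO and Dnmt2-/- liver were not spread evenly over the chromosomes. On chromosome 13, which carries Nsun2, 26 of 310 genes passed 2-fold (8.39%), 15 higher and 11 lower, and on chromosome 3 it was 30 of 436 (6.88%), 10 higher and 20 lower, against 3.78% of all genes. The other autosomes and chromosome X lay between 1.43% and 4.82%, and 0 of 3 genes on chromosome Y passed. On chromosome 13 the members included Tpmt, Paip1, Ctsl, Zfp738, Fastkd3 and Hmgcs1. Of the 339 genes, 49 stood in 23 runs of adjacent tested genes that all passed 2-fold. Some runs held opposite directions, such as Paip1 at −2.64 and 4833420G17Rik at 1.21, and others held similar genes, such as Saa1 and Saa2. Some runs arise without any clustering, and whether 23 is more than that was not tested. Genotype and the mixed strain background carried with it cannot be told apart here.

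**Figure D5:**
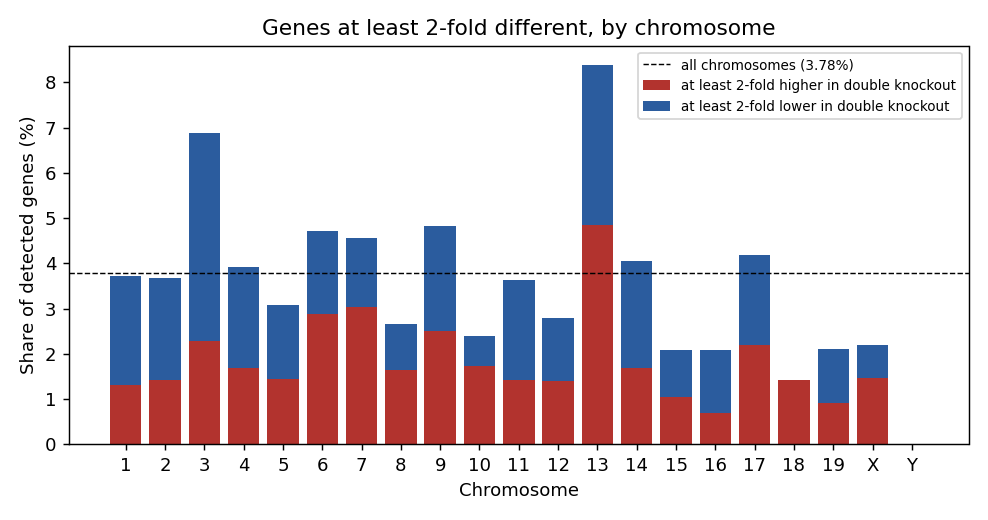
Share of detected genes at least 2-fold different between double knockout and Dnmt2-/- liver (vertical axis, percent) on each chromosome (horizontal axis), split into higher (red) and lower (blue) in double knockout liver, with the share over all chromosomes as a dashed line. Chromosome 13 at 8.39% and chromosome 3 at 6.88% stand above the others.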

How the data were processed

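RNA was extracted with Trizol and labelled as biotin cRNA, per the labels' protocols. The authors deposited linear intensity values with a detection p-value for each probe, per the file headers, and a separate table of processed intensity values. The sources used here do not say how those values were normalized or how the detection p-value was computed. The intensity values were background-corrected with limma's normexp model (limma 3.58.1, R 4.3.3, offset 16), turned into log2 values and then quantile-normalized across the 8 arrays. Each gene was represented by its brightest probe over the 8 arrays, and gene symbols came from the platform annotation, which named 23898 of 25608 probes with 1 gene, 0 with several and 1710 with none. RefSeq tables (GRCm38.p6) gave chromosomes, neighbours and promoters. Samples were grouped by their labels. A gene was called at 2-fold, with no p-value between single arrays.

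Nsun2 loss in liver was tested with limma and Benjamini-Hochberg adjustment, over genes that were detected on 2 or more arrays, with tissue, Dnmt2 loss within tissue and Nsun2 loss within tissue as terms. The fit was also run on simulated data, in which 200 of the 10491 genes were given a change. It found 42% of the genes with a log2 shift of 1 and 100% at a shift of 2, with 15 false calls. In the measured data the fitted effects of Tpmt (3.84), A2ml1 (3.03) and Cish (2.85) were above 2. limma called none of them at an adjusted p under 0.05. The simulated recovery therefore does not describe the measured data, and the 0 calls do not show that large differences were absent.

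The members and the 51 gene lists were chosen with earlier results of these data known. Genes were named by rule: Nsun2, Trdmt1 and the genes nearest Nsun2, the 20 highest and 20 lowest, list members at least 2-fold different or otherwise up to 4 of the largest, up to 12 genes shared by and 12 opposite between the liver pairs, the 4 nearest the 2-fold limit, and the 10 lowest adjusted p-values in limma. Ehhadh, Acadm, H2-DMa, Ciita, Ghr, Igf1, Stat5a, Hp, Crp, Arntl, Ttr and Apoa1, further Kupffer cell, neutrophil and lymphocyte markers and further genes shared by or opposite between the liver pairs were named after their values were seen. Alternatives tried were no background correction, an offset of 50, scaling to the same median, the 4 liver arrays alone, the authors' deposited values, the mean over probes and other detection limits.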

Additional observations from a re-analysis of the deposited data

Results flagged for a closer look

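Genes are listed here because they differed by at least 2-fold in opposite directions in DKO over Dnmt2-/- and in Nsun2-/- over wild-type liver. There was 1 array per group, and the difference between the pairs was not tested. Of the 28 genes opposite between the pairs, 10 were higher and 18 lower in DKO over Dnmt2-/- liver. Only those named by the rules above are given here. Those higher in DKO liver and lower in Nsun2-/- liver were Asic5 at a bound of 3.16 and −2.78, the globin gene Hbb-b2 at bounds of 2.80 and −3.44, Saa1 at 1.91 and −1.42, Mrps27 at 1.53 and −1.89, Tmod4 at bounds of 1.51 and −1.81, and Hmgcs1 at 1.20 and −1.27, with the value in DKO over Dnmt2-/- liver given first. A bound means a difference at least that large, since the probe was not detected on 1 array of the pair. Those lower in DKO liver and higher in Nsun2-/- liver were Adh7 at a bound of −3.49 and 1.53, Cyp4a14 at −3.37 and 1.47, Nudt6 at −2.64 and 2.23, Paip1 at a bound of −2.64 and 1.94, Them4 at a bound of −2.40 and 1.75, Selenbp2 at −2.29 and 2.28, Sucnr1 at −2.10 and 1.05, Gpat3 at −1.90 and 1.45, Fgf21 at −1.71 and 1.80, Acot3 at −1.69 and 1.16, Slc25a30 at −1.60 and 1.74, Rps3a1 at −1.43 and 1.28, and Ctsc at −1.18 and 1.14. For Nudt6 and Selenbp2, DKO and wild-type liver were both low: Nudt6 had levels of 6.01 in DKO, 8.65 in Dnmt2-/-, 8.43 in Nsun2-/- and 6.20 in wild-type liver, and Selenbp2 had 8.91, 11.20, 11.40 and 9.12 in the same order of livers. Hbb-b2 was not detected in Dnmt2-/- and Nsun2-/- liver and had levels of 7.58 in DKO and 7.97 in wild-type liver.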

How the results depend on the processing

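The number of genes past 2-fold depended on the processing. Against 339 genes (169 higher, 170 lower), no background correction gave 79 (45 and 34), an offset of 50 gave 120 (60 and 60), scaling to the same median 199 (82 and 117), the 4 liver arrays alone 190 (98 and 92), the authors' deposited values 78 (43 and 35), and detection on both arrays 183 (95 and 88). Genes past 2-fold the same way in both liver pairs numbered 31, against 11 without background correction, 17 for an offset of 50 and 11 for the authors' values. Those in opposite ways numbered 28, against 10, 16 and 12 under the same settings and 18 with detection on both arrays. Lists of 5 or more detected genes with a median of at least 0.2 in size numbered 11, against 5 without background correction and 3 for the authors' values. The cause was not tested. Scaling to the same median moved the median of all genes to −0.10, and 41.2% of the calls were then higher, against 49.9% before. The chemokine median turned to −0.0454 with that scaling and to −0.10 with detection on both arrays. The 116 named genes past 2-fold kept their direction under all 6 alternatives run on them, and 58 stayed past 2-fold under all 6. limma called 0 genes under all 5 alternatives, with lowest adjusted p-values from 0.0639 to 0.726 in limma and 342 to 1115 genes at an unadjusted p under 0.05. Signal near background limits these data, since 156 of the 339 differences are bounds, and 1 array per group leaves no replicate spread. No paired analysis was possible because every sample carries replicate number 1.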

Other observations

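The labels do not give the sex of the mice. Eif2s3y, a gene of chromosome Y, was detected in all 4 livers, at 8.93 in DKO, 8.76 in Dnmt2-/-, 8.76 in Nsun2-/- and 8.79 in wild-type liver. Xist, the RNA that silences an X chromosome in females, had low levels of 4.85 in DKO and 5.48 in Dnmt2-/- liver.

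Further genes passed 2-fold. DKO liver was the lowest or highest of the 4 livers for Hspb1, Ccnd1 and Lpl, and Dnmt2-/- liver alone was low for Gstp2. The heat shock gene Hspb1 had a level of 7.15 in DKO liver, against 8.98 in Dnmt2-/- liver, with 8.45 in Nsun2-/- and 8.15 in wild-type liver. The cyclin gene Ccnd1 had a level of 10.32 in DKO liver, against 8.74 in Dnmt2-/- liver, with 9.21 in Nsun2-/- and 9.29 in wild-type liver. Lpl, lipoprotein lipase, had a level of 11.31 in DKO liver, against 9.87 in Dnmt2-/- liver, with 10.41 in Nsun2-/- and 9.78 in wild-type liver. The glutathione transferase gene Gstp2 had a level of 8.81 in DKO liver, against 7.05 in Dnmt2-/- liver, with 9.24 in Nsun2-/- and 8.64 in wild-type liver.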
